A study of Mus musculus with 36 samples.

Results

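The nuclear-encoded subunits of the mitochondrial respiratory chain and ATP synthase were followed across mouse liver and liver tumours. Members were chosen by name, as every array probe whose gene symbol starts with Nduf, Uqcr, Cox4, Cox5, Cox6, Cox7, Cox8 or Atp5, or is Sdha, Sdhb, Sdhc or Sdhd. The choice was made with earlier results of these data known. The rule found 107 of the 25697 probes, which named 85 genes. Of these, 80 had a probe detected (detection p under 0.05) on at least 3 of the 36 arrays and are the members among the 10765 genes tested. They comprised 33 genes of complex I, 3 of complex II, 7 of complex III, 16 of complex IV, 16 of complex V and 5 complex I assembly factors (*Ndufaf1*, *Ndufaf3*, *Ndufaf4*, *Ndufaf5* and *Ndufaf7*). *Ndufs1*, *Uqcrq*, *Cox4i2*, *Cox7b2* and *Cox8c* had a probe but were not detected often enough, and genes with no named probe, *Sdha* among them, were not analysed here.

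The respiratory chain sits in the inner mitochondrial membrane. Complex I takes electrons from NADH and complex II from succinate, and both pass them through ubiquinone to complex III, cytochrome c and complex IV, which reduces oxygen. Complexes I, III and IV pump protons, and complex V, the ATP synthase, uses the proton gradient to make ATP. Hepatocytes are rich in mitochondria and rely on this chain for urea synthesis, glucose production and fatty acid oxidation. Several complex IV subunits exist as paralogues, a ubiquitous form and a form of heart and skeletal muscle or of testis.

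RNA came from liver of FVB/n mice, with 1 single-color bead array per sample. Tumours of the AKT-NRAS model were sampled with DDC (Tu_AKTNRAS_DDC, 4 samples) and without (Tu_AKTNRAS, 4). For the AKT-CAT model there were tumours and non-tumoral liver with CCl4 (Tu_AKTCAT_CCl4, 4, and NonTu_AKTCAT_CCl4, 4), with DDC (Tu_AKTCAT_DDC, 4, and NonTu_AKTCAT_DDC, 3) and without treatment (Tu_AKTCAT, 4, and NonTu_AKTCAT, 3). The controls were liver given DDC alone (DDC_only, 3) and PBS (PBS_only, 3). AKT and NRAS are oncogenes, and the labels spell out neither CAT nor DDC. CCl4, carbon tetrachloride, injures hepatocytes around the central vein. The labels give neither how the driver genes reached the liver nor doses, durations, ages or separate animals, so p-values measure the spread between these samples, which may be technical.

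Of 12 hepatocyte markers 11 were measured, and *Alb*, *Apoa1*, *Ttr*, *Cps1* and *Hnf4a* were detected on all 36 arrays. Of the others, *Pck1* was detected on 32 arrays and *Tat* on only 5. Arrays detected 10688 to 13101 probes and had a median signal of 7.35 to 46.2 intensity units. Both differed between some compared groups and overlapped in others. Tu_AKTCAT_CCl4 arrays detected 11556 to 12220 probes, against 10688 to 11392 in NonTu_AKTCAT_CCl4. NonTu_AKTCAT_DDC arrays detected 11822 to 12174 and Tu_AKTCAT arrays 11715 to 12735, against 10990 to 11121 in NonTu_AKTCAT. The median signal was 11.68 to 46.2 in Tu_AKTNRAS, against 9.0678 to 13.294 in Tu_AKTCAT, with overlap. The part of signal and detection in the members' values was not tested. The number of arrays, 3 or 4 a group, limits the precision. The arrays lay on 5 slides, read from the deposited column names. DDC_only and PBS_only shared slide 1 with 2 arrays of Tu_AKTCAT_DDC. Slide 2 held the other 2 of these with NonTu_AKTCAT_DDC and 3 of Tu_AKTCAT, and slide 3 held the last of Tu_AKTCAT with NonTu_AKTCAT. The AKT-NRAS groups were alone on slide 4 and the CCl4 groups on slide 5. In these bulk samples, fewer cells of a type and less RNA per cell cannot be told apart. Levels are log2 normalized intensities, and differences are log2 fold changes ± the standard error of 1 limma fit over all arrays. Calls have a Benjamini-Hochberg adjusted p under 0.05 over all genes tested.

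Across the 10 groups, 53 of 80 members differed by limma's moderated F test (66.2%), where 78.5% of all genes did. The largest F in each complex belonged to *Ndufb5* (complex I), *Sdhd* (II), *Uqcrb* (III), *Cox7b* (IV) and *Atp5a1* (V). The median member lay below its PBS_only mean on each of the 33 other arrays, by 0.05 to 0.46 on the log2 scale, while the median of all genes stayed within -0.06 and 0.04 of it. These differences all share the 3 PBS_only arrays. DDC_only arrays had member medians of -0.36, -0.31 and -0.37, and Tu_AKTNRAS arrays of -0.08, -0.23, -0.15 and -0.05.

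**Figure D1:**
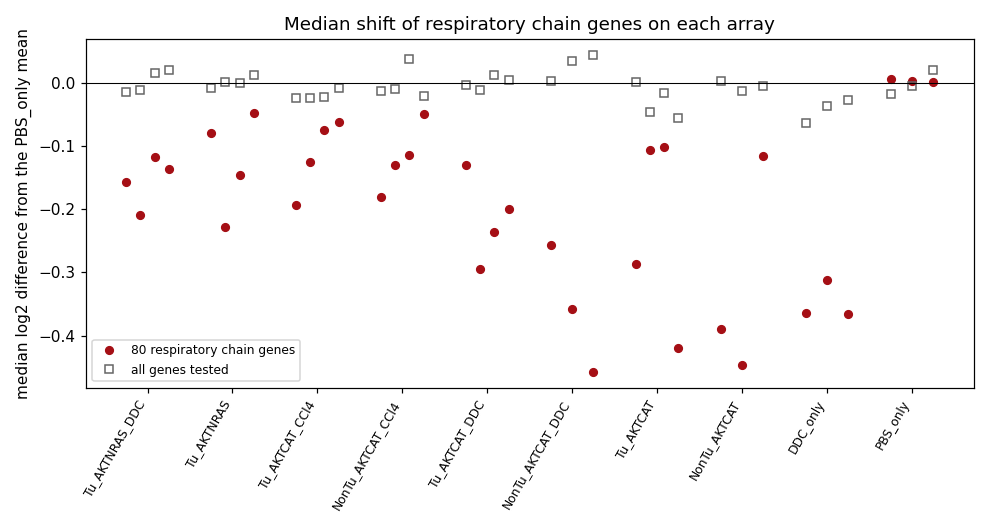
Median log2 difference from the PBS_only mean on each array (vertical axis), for the 80 respiratory chain genes (filled circles) and all 10765 genes tested (open squares), by group (horizontal axis). The member medians lie below 0 on all 33 arrays outside PBS_only, and those of DDC_only lie between -0.37 and -0.31.

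**Figure D2:**
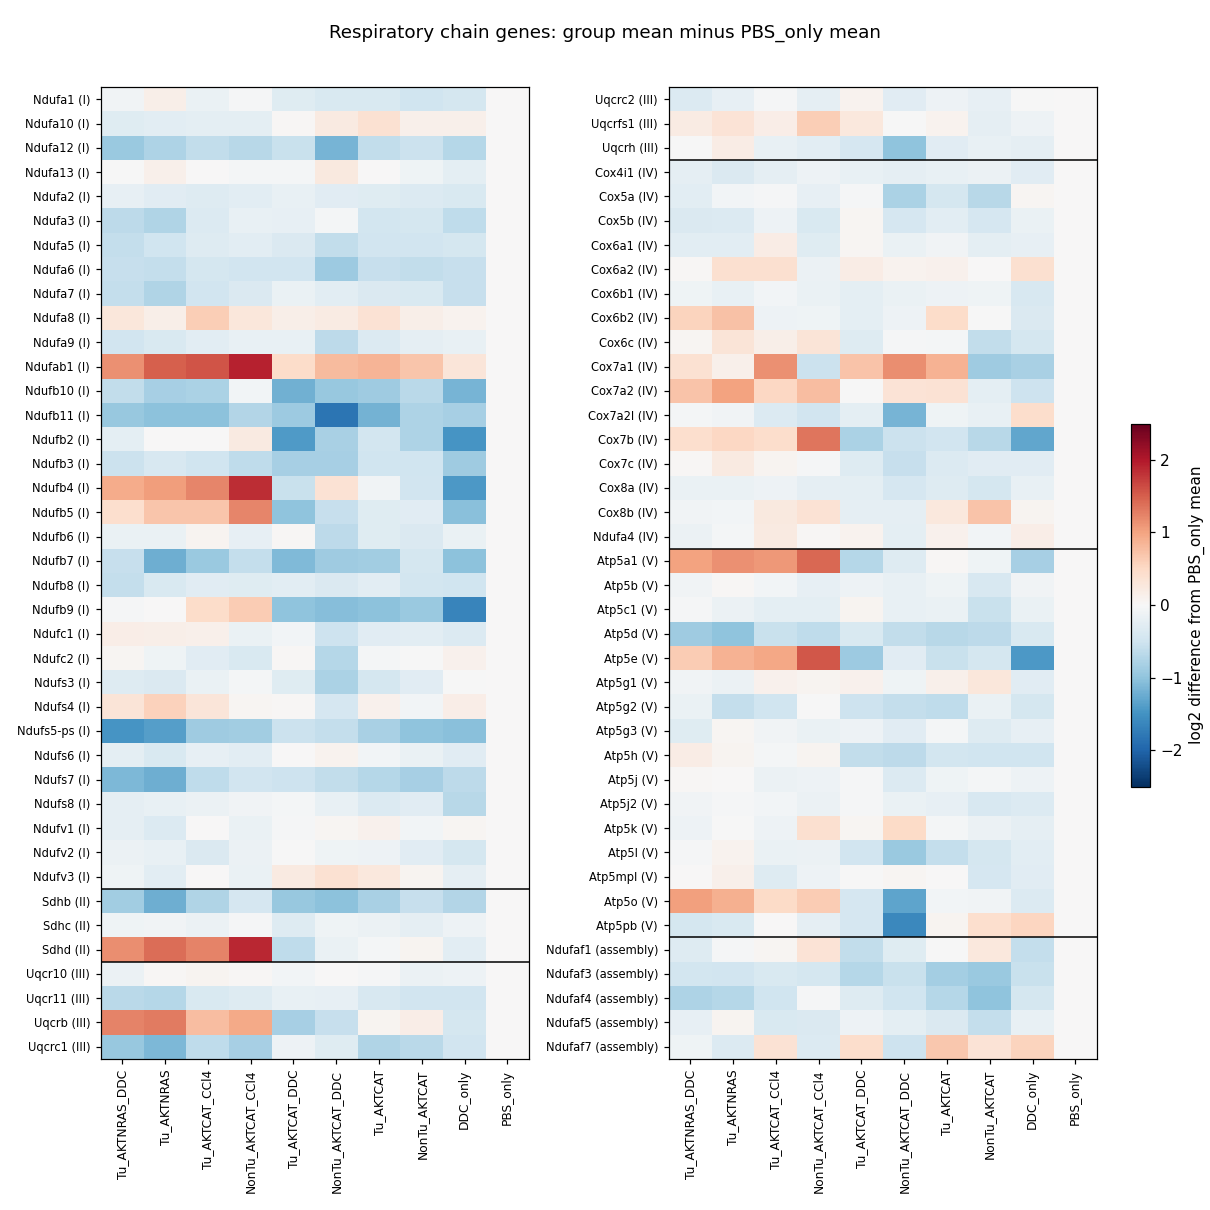
Group mean minus PBS_only mean (log2, colour) of each of the 80 members, ordered by complex, in the 10 groups. Most complex I rows are blue in DDC_only, and *Sdhd*, *Ndufb4*, *Atp5e* and *Atp5a1* are above 0 in all AKT-NRAS and CCl4 groups.

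The comparison of DDC with PBS, in liver with no driver gene, asked what DDC alone does. With DDC, 25 of 80 members were lower (31.2%) and none was higher, where 11.6% of all genes were lower, 11.1% higher and 22.7% called in either direction. The median member changed by -0.34 and the median gene by -0.04. The fall was densest in complex I, where 18 of 33 genes were lower, against 1 of 3 in complex II, 1 of 7 in complex III, 1 of 16 in complex IV, 3 of 16 in complex V and 1 of 5 assembly factors. Whether the complexes differed was not tested. For 43 members every DDC_only array lay below every PBS_only array, a pattern that 17.9% of all genes showed.

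Within complex I the Ndufb genes, which encode accessory subunits of the membrane arm, were lower in 8 of 10 cases with a median of -1.04. Of the Ndufa genes 6 of 12 were lower, of the Ndufs genes 3 of 6, of the Ndufv genes 1 of 3 and of the Ndufc genes 0 of 2 (a split by symbol made after the values were seen). These counts rest on the probe in use. The other *Ndufc1* probe fell by -0.74 ± 0.22 (adjusted p = 0.0146 over probes). Another *Ndufs4* probe fell by -0.66 ± 0.22 (adjusted p = 0.0276), while the remaining *Ndufs4* probes did not pass. *Ndufb9* had 8.04, 7.92 and 7.80 in DDC_only, against 9.40, 9.76 and 9.58 in PBS_only. It was the largest fall of any member, at -1.66 ± 0.24 (0.317-fold, adjusted p = 5.8e-06). *Ndufb2* had 7.44, 7.39 and 8.11 in DDC_only, against 9.09, 9.18 and 9.07 in PBS_only. No array of 1 group reached the other group, and the change was -1.46 ± 0.26 (adjusted p = 9.36e-05). *Ndufb4* had 5.26, 5.10 and 5.12 in DDC_only, close to background with detection on 2 of 3 arrays, against 6.43, 6.58 and 6.79 in PBS_only (-1.44 ± 0.32, adjusted p = 0.00119). Among the core subunits, *Ndufs7* (-0.66 ± 0.17) and *Ndufs8* (-0.68 ± 0.20), which carry iron-sulfur clusters next to the ubiquinone site, were lower. *Ndufv2* of the NADH-oxidising module was lower by less (-0.43 ± 0.13), while *Ndufv1*, which binds the flavin, changed by 0.04 ± 0.15 and *Ndufs3* by -0.01 ± 0.19, neither past the test. *Ndufs5-ps*, the symbol of a pseudogene of a complex I subunit whose probe may read the parent gene, was lower by -1.06 ± 0.18.

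*Ndufb7* had 8.31, 8.49 and 8.63 in DDC_only, against 9.41, 9.53 and 9.59 in PBS_only (-1.03 ± 0.16, adjusted p = 1.77e-05). Its 3 PBS_only values were above those of all 33 other arrays, whose highest was 9.15. The same held for *Atp5d*, *Ndufs5-ps*, *Ndufa12*, *Ndufa6*, *Ndufb3* and *Ndufs7*, 7 members in all, and for 1.56% of all genes. No member had PBS_only below all other arrays, as 2.02% of all genes did.

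Outside complex I, the ATP synthase subunit *Atp5e*, a small part of the catalytic sector, had 6.65, 6.54 and 6.54 in DDC_only, against 7.60, 8.04 and 8.37 in PBS_only. The groups did not overlap (-1.43 ± 0.26, adjusted p = 0.000163). *Atp5a1*, the alpha subunit of the same sector, had 8.94, 8.68 and 8.99 in DDC_only, against 9.77, 9.63 and 9.70 in PBS_only (-0.83 ± 0.21, adjusted p = 0.0046). *Atp5h*, of the stalk, was lower by -0.50 ± 0.16, and the beta subunit *Atp5b* changed by -0.08 ± 0.16 and did not pass. In complex IV only *Cox7b* was lower. It had 6.09, 5.65 and 5.38 in DDC_only, against 6.43, 7.16 and 7.44 in PBS_only (-1.30 ± 0.33, adjusted p = 0.00405). *Sdhb*, the iron-sulfur subunit of complex II, had 11.14, 10.77 and 10.88 in DDC_only, against 11.67, 11.86 and 11.47 in PBS_only (-0.74 ± 0.19, adjusted p = 0.00404). *Uqcr11*, a small subunit of complex III, had 13.19, 13.40 and 13.42 in DDC_only, against 13.90, 13.81 and 13.76 in PBS_only (-0.49 ± 0.16, adjusted p = 0.0256).

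**Figure D3:**
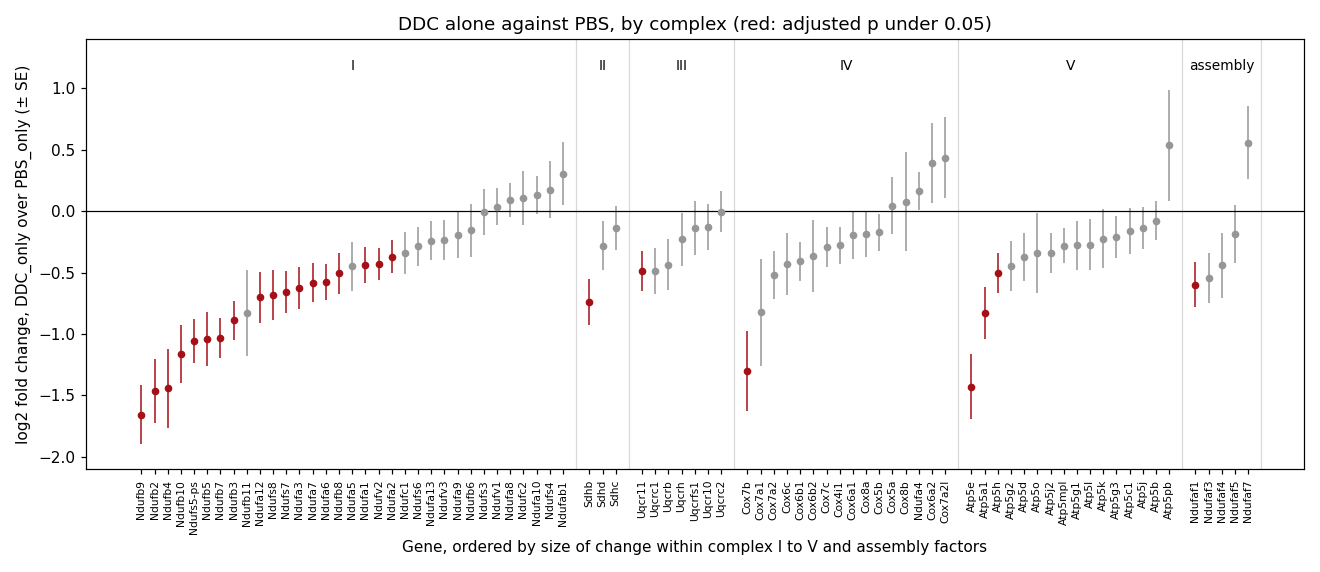
Log2 fold change of DDC_only over PBS_only for each of the 80 members (points, bars ± SE), grouped by complex and ordered by size, with called genes in red. Of 33 complex I genes 18 are called and lie below 0, and *Ndufb9* is lowest at -1.66.

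Promoters of members that fell with DDC are shown to compare their matches to the motifs of nuclear respiratory factor 1 (NRF1) and of ETS factors such as GABP, regulators that are known to drive respiratory genes. They are RefSeq sequences of GRCm38.p6, on the gene's strand, with motif matches in capitals.
Ndufb4 (chr16:37654319-37654618, minus strand): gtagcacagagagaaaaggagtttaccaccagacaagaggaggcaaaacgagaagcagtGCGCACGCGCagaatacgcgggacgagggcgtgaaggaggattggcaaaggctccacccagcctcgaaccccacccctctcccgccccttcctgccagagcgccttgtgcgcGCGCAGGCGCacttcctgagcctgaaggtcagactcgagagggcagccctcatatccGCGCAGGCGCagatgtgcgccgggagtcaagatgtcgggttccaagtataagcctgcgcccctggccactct
Atp5h (chr11:115419870-115420169, minus strand): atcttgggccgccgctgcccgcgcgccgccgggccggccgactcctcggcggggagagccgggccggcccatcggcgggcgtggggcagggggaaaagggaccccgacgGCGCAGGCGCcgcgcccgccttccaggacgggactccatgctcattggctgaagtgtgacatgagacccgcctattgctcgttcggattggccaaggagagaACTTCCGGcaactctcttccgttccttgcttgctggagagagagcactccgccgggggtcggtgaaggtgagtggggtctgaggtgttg
Atp5e (chr2:174464052-174464351, minus strand): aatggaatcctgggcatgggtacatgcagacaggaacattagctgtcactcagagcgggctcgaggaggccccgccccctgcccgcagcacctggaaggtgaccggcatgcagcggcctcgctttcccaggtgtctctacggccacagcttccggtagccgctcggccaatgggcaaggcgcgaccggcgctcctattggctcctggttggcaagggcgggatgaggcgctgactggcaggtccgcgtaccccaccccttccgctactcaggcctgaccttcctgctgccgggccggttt
*Ndufb4* has 3 NRF1 matches, *Atp5h* has 1 NRF1 and 1 ETS match, and *Atp5e* has neither in this window. The NRF1 motif was searched as GCGCNTGCGC and the ETS motif as CCGGAAGT, on both strands, and no match of 1 overlapped a match of the other in any promoter of the table. Of the 85 genes the rule named 70 had a promoter there, and 16 of them (22.9%) held the NRF1 motif, as did 5.19% of the 27025 genes with a promoter. Among those tested, 3 of 21 that fell with DDC (*Ndufb4*, *Atp5h* and *Ndufa6*) and 13 of 48 that did not pass held it. The promoters shown are therefore examples and not typical of the members that fell. The ETS motif was in 5 of 70 members (7.14%) and in 4.31% of all genes. A match is a description of the letters, not of binding.

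The genes around the chain moved unevenly with DDC, in a comparison where 11.6% of all genes were lower and 11.1% higher. Whether these short lists differ from all genes was not tested. Of 28 measured assembly factors outside the naming rule, 8 were lower and none higher (median -0.29). The complex I factors *Timmdc1* (-1.0 ± 0.26), *Tmem126b* (-0.90 ± 0.25) and *Ecsit* (-0.80 ± 0.25) fell most, with *Coa6* of complex IV (-0.70 ± 0.26). Of 13 genes of mitochondrial DNA maintenance and transcription 3 were lower, with *Polg2*, the accessory subunit of the mitochondrial DNA polymerase, at -1.41 ± 0.31. Of 19 import and outer membrane genes 5 were lower, among them *Tomm70a*, an import receptor, at -1.11 ± 0.27. Of 12 tricarboxylic acid cycle genes none passed (median -0.21), and of 12 glycolysis genes none passed (median 0.31), with 1 and 2 of them at an unadjusted p under 0.05. Of 9 genes of pyruvate dehydrogenase and its regulators 3 were lower and 1 higher. *Pdk2* (-1.60 ± 0.36) and *Pdk1* (-1.46 ± 0.25), kinases that switch the enzyme off, and the phosphatase *Pdp2* (-0.995 ± 0.17) were lower, and the phosphatase *Pdp1* was higher (0.67 ± 0.18). Of 9 transcriptional regulators of respiratory genes *Ppargc1b*, a coactivator, was lower (-1.41 ± 0.40). *Atpif1*, the inhibitor of ATP synthase, was higher by 0.51 ± 0.18.

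Both groups lay on slide 1, and the summed level of the 11 hepatocyte markers was 112610 to 118410 in DDC_only, against 130570 to 136160 in PBS_only. The summed level of the 10 stellate cell and fibroblast markers was 11318 to 13675 in DDC_only, against 6031 to 6788 in PBS_only, 5 of 6 proliferation markers were higher, and DDC_only arrays detected 11985 to 12413 probes, against 10969 to 11100. The macrophage sum was 7998 to 11171 in DDC_only, against 5521 to 7081 in PBS_only, and the cholangiocyte sum 100 to 204, against 30.3 to 89.1, with 2 of 4 cholangiocyte markers higher. The part of these in the members' fall was not tested. With only these 6 arrays in the fit 15 members were called, and with each array scaled to the same median, which shifted the median gene to -0.37, 67 were called and the median member was at -0.92. Other probes of a member did not always move alike, as a second *Ndufa5* probe changed by -1.72 ± 0.26 (adjusted p = 1.16e-05 over probes), where the probe in use changed by -0.45 ± 0.20, and 1 of the *Sdhb* probes, detected on 9 of 36 arrays, changed by 0.02 ± 0.24.

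Non-tumoral AKT-CAT liver without treatment was set against PBS_only, the arrays that also served the DDC comparison. In NonTu_AKTCAT 18 of 80 members were lower (22.5%) and none higher, where 7.66% of all genes were lower and 7.39% higher, and the median member changed by -0.29. With each array scaled to the same median 40 were lower and none higher. Complex I had 8 of 33 lower, complex V 4 of 16, complex III 2 of 7, the assembly factors 2 of 5, and complexes II and IV 1 each of 3 and 16. The largest falls were those of *Ndufs5-ps* (-1.01 ± 0.18), the assembly factors *Ndufaf4* (-1.0 ± 0.26) and *Ndufaf3* (-0.93 ± 0.21), and *Ndufb9* (-0.92 ± 0.24). *Ndufaf4* had 9.33, 9.51 and 8.84 in NonTu_AKTCAT, against 9.99, 10.09 and 10.59 in PBS_only, and the groups did not overlap. In the DDC comparison *Ndufs5-ps* changed by -1.06 ± 0.18, *Ndufaf4* by -0.44 ± 0.26, *Ndufaf3* by -0.55 ± 0.21 and *Ndufb9* by -1.66 ± 0.24.
The endothelial marker sum was 10400 to 10924 in NonTu_AKTCAT, against 7417 to 8241 in PBS_only, the stellate cell and fibroblast sum 7189 to 10146, against 6031 to 6788, and the neutrophil sum 588 to 2977, against 102 to 223. Of 6 proliferation markers 4 were higher, and the part of all these in the members' fall was not tested.
NonTu_AKTCAT lay on slide 3 and PBS_only on slide 1, so slide and group cannot be told apart directly. With slide as a block, estimated through the AKT-CAT tumours that span slides 1 to 3, the median member changed by -0.10 and 0 members were called, as was 0 of all genes, and in a fit of these 6 arrays alone 0 members were called. Without 1 array at a time 5 to 26 members were called, with 11, 5 and 7 without PBS_only 1, 2 and 3, and 7 each without NonTu_AKTCAT 1 and 2.

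DDC was also compared within AKT-CAT tumours. In Tu_AKTCAT_DDC against Tu_AKTCAT 6 members were lower and 1 higher, where 5.86% of all genes were lower, 7.4% higher and 13.3% called in all, so the members' share (8.75%) was below the background, and their median change was -0.00. With each array scaled to the same median 5 were lower and none higher. *Uqcrb*, a small subunit of complex III, had 9.69, 9.60, 9.78 and 10.001 in Tu_AKTCAT_DDC, against 10.52, 10.998, 10.75 and 10.40 in Tu_AKTCAT, with no overlap (-0.90 ± 0.18, adjusted p = 0.00101). The macrophage marker sum was 834 to 2348 in Tu_AKTCAT_DDC, against 2895 to 5454 in Tu_AKTCAT, and the endothelial sum 547 to 1860, against 3484 to 8889, and their part was not tested. *Ndufb2* (-0.96 ± 0.22), *Atp5a1* (-0.74 ± 0.18) and *Ndufb5* (-0.70 ± 0.19) were the other large falls. *Ndufb5*, an accessory subunit of the membrane arm, had 8.09, 8.02, 8.05 and 8.39 in Tu_AKTCAT_DDC, against 8.88, 8.92, 8.78 and 8.78 in Tu_AKTCAT. *Sdhd*, a membrane anchor of complex II, had 7.59, 7.43, 7.82 and 7.71 in Tu_AKTCAT_DDC, against 8.52, 8.34, 8.16 and 7.86 in Tu_AKTCAT (-0.59 ± 0.17, adjusted p = 0.0207). The complex III core subunit *Uqcrc1* was higher, with 13.11, 12.78, 12.99 and 12.96 in Tu_AKTCAT_DDC, against 12.78, 12.34, 12.003 and 12.22 in Tu_AKTCAT (0.63 ± 0.16, adjusted p = 0.0107).
With slide as a block *Uqcrb* alone was called (-0.86, adjusted p = 0.0361), and *Ndufb2*, *Atp5a1*, *Ndufb5* and *Uqcrc1* had -0.77, -0.58, -0.64 and 0.60. Within slide 2, with 2 arrays against 3, the changes were the same and 0 members were called, as was 0 of all genes.

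In AKT-NRAS tumours, both groups on slide 4, DDC changed a single member. *Ndufb7*, an accessory complex I subunit, had 8.58, 8.92, 9.12 and 9.15 in Tu_AKTNRAS_DDC, against 8.06, 8.61, 8.27 and 8.19 in Tu_AKTNRAS. The lowest array with DDC lay just under the highest without (0.66 ± 0.14, adjusted p = 0.00822), and 0.511% of all genes were higher and 1.43% lower (1.94% in all). The AKT-CAT tumours had 8.37, 8.37, 8.39 and 8.51 for *Ndufb7* in Tu_AKTCAT_DDC, against 8.64, 8.75, 8.66 and 8.55 in Tu_AKTCAT (-0.24 ± 0.14, not past the test). The difference between the 2 effects, AKT-NRAS minus AKT-CAT, was 0.90 ± 0.20 (adjusted p = 0.00911), the only member called in that comparison, where 1.69% of all genes were higher and 3.43% called in all. With slide as a block it was 0.89 and missed the threshold (adjusted p = 0.0652). The median member changed by -0.04 in AKT-NRAS tumours. The stellate cell and fibroblast sum was 4641 to 6772 in Tu_AKTNRAS_DDC, against 8951 to 12195 in Tu_AKTNRAS. The macrophage sum was 2953 to 4038, against 5259 to 6477, and the T, B and NK cell sum 50.1 to 94.5, against 102 to 264. The cholangiocyte sum was higher with DDC, 2383 to 3291, against 998 to 1937. The part of these sums was not tested. A fit of the 2 AKT-NRAS groups alone called 0 members, and 2 were called without Tu_AKTNRAS 2.

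In non-tumoral AKT-CAT liver 11 members were lower and 3 higher with DDC, 17.5% of the members, where 7.78% of all genes were lower and 10.3% higher. With 18.1% of all genes called, the members' share was near the background. With each array scaled to the same median 6 were lower and 7 higher. The largest fall was that of *Atp5pb*, subunit b of the ATP synthase stalk, with 9.75, 9.05 and 8.59 in NonTu_AKTCAT_DDC, against 11.06, 10.65 and 11.79 in NonTu_AKTCAT (-2.04 ± 0.45, adjusted p = 0.00163). *Atp5pb* also varied within some groups without DDC, with 11.50, 10.76 and 9.99 in PBS_only and 9.01 to 11.41 in NonTu_AKTCAT_CCl4. *Atp5o* (-1.24 ± 0.33), a stalk subunit, *Ndufb11* (-1.06 ± 0.35, detected on 1 of 3 arrays with DDC) and *Cox7a2l*, a factor of respiratory supercomplexes (-0.98 ± 0.33), followed. For *Atp5o* and *Ndufb11* the groups overlapped. *Cox7a1* (2.05 ± 0.44), *Cox7a2* (0.60 ± 0.20) and *Atp5mpl*, a small ATP synthase subunit (0.46 ± 0.14), were higher. Of 12 tricarboxylic acid cycle genes 5 were higher and none lower, *Mdh2* (0.95 ± 0.22), *Idh3a* (0.90 ± 0.23), *Cs* (0.88 ± 0.20), *Idh2* and *Dlst*. The hepatocyte sum was 97200 to 110700 in NonTu_AKTCAT_DDC, against 134940 to 135490 in NonTu_AKTCAT, and the endothelial sum 2373 to 6355, against 10400 to 10924, and their part was not tested. The group with DDC lay on slide 2 and that without on slide 3. With slide as a block 0 members were called (283 of all genes), *Atp5pb* changed by -1.56 and *Cox7a1* by 1.34, and the calls numbered 5 to 17 without 1 array at a time, with 9 and 6 without NonTu_AKTCAT 2 and 3 and 8 and 5 without NonTu_AKTCAT_DDC 2 and 3.

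Tumours were compared with non-tumoral AKT-CAT liver under each treatment. Without treatment 3 members were higher in Tu_AKTCAT than in NonTu_AKTCAT and none lower, where 5.93% of all genes were higher and 5.27% lower. With CCl4 2 were higher and 3 lower, where 7.84% of all genes were higher and 7.4% lower (15.2% in all). With DDC 5 were higher and none lower, where 2.48% of all genes were higher and 3.29% lower (5.77% in all). The median member changed by 0.08 without treatment, -0.02 with CCl4 and 0.09 with DDC. With each array scaled to the same median, the split with CCl4 was 1 higher and 19 lower (median -0.36, all genes -0.26), and that with DDC was 1 higher and 2 lower (median -0.16, all genes -0.19).

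*Cox7a1*, the heart and skeletal muscle form of subunit VIIa, was higher in tumours in 2 of these 3 comparisons. With CCl4 it had 8.18, 8.30, 7.22 and 8.32 in tumours, against 6.58, 6.47, 6.36 and 5.92 in non-tumoral liver, with no overlap (1.67 ± 0.38, adjusted p = 0.00213). Without treatment it had 7.56, 8.41, 7.76 and 7.20 in tumours, against 5.45, 4.87 and 7.65 in non-tumoral liver (1.74 ± 0.41, adjusted p = 0.00444). There non-tumoral array 3 lay among the tumours, and 1 of the 3 was not above background. With DDC it had 7.57, 7.24, 7.77 and 7.75 in tumours, against 8.18, 8.13 and 7.81 in non-tumoral liver (-0.46 ± 0.41, not past the test). The tumour effect with CCl4 minus that with DDC was 2.13 ± 0.56 (adjusted p = 0.026), the only member called, where 2.37% of all genes were higher and 3.33% called in all, and with slide as a block it missed the threshold (1.95, adjusted p = 0.112). No member was called without non-tumoral 1 or 2 with DDC, tumour 2 or 4 with CCl4 or non-tumoral 4 with CCl4, and 2 were called without non-tumoral 3 with CCl4. *Cox7a1* had 6.70, 6.91, 7.94 and 7.46 in Tu_AKTNRAS_DDC and 7.02, 6.89, 7.15 and 6.89 in Tu_AKTNRAS. In the controls it had 5.88, 6.29 and 5.98 in DDC_only, against 7.56, 6.87 and 6.18 in PBS_only (-0.82 ± 0.44, not past the test). Other genes of heart and skeletal muscle were rarely detected, *Cox6a2* on 7 of 36 arrays, *Cox8b* on 4, *Mb* (myoglobin) on 4 and *Atp2a1* on 3, where *Cox7a1* was on 35. Of the 5 measured muscle markers *Cox7a1* was the only 1 called in any of these comparisons.

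*Cox7a2*, the ubiquitous paralogue, had 8.69, 8.85, 9.0 and 8.43 in untreated tumours, against 8.21, 8.01 and 8.20 in non-tumoral liver (0.61 ± 0.19, adjusted p = 0.0299). With CCl4 it changed by -0.25 ± 0.17 and did not pass. *Cox6a1*, the ubiquitous form of VIa, was higher in tumours with CCl4 (0.47 ± 0.16, adjusted p = 0.0452). *Cox5a* (0.77 ± 0.21, adjusted p = 0.0312) and *Cox5b* (0.47 ± 0.14, adjusted p = 0.0482), both subunits next to the catalytic core, were higher in tumours with DDC, with *Ndufaf7* (0.96 ± 0.28), *Ndufc2* (0.75 ± 0.20) and *Ndufb6* (0.69 ± 0.20, where its other probe gave 0.35 ± 0.24). *Cox5a* had 13.34, 12.63, 13.07 and 13.08 in Tu_AKTCAT_DDC, against 12.72, 12.24 and 11.82 in NonTu_AKTCAT_DDC, so the groups overlapped. The muscle form *Cox6a2*, the testis form *Cox6b2* and the muscle form *Cox8b* lay near background, with medians over the 36 arrays of 4.76, 4.88 and 4.61, and were called in none of the comparisons. Of the 3 genes for the c-ring of ATP synthase, *Atp5g1* ranged over 12.29 to 13.44, *Atp5g2* over 9.11 to 10.33 and *Atp5g3* over 13.97 to 15.02, and none was called.

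**Figure D4:**
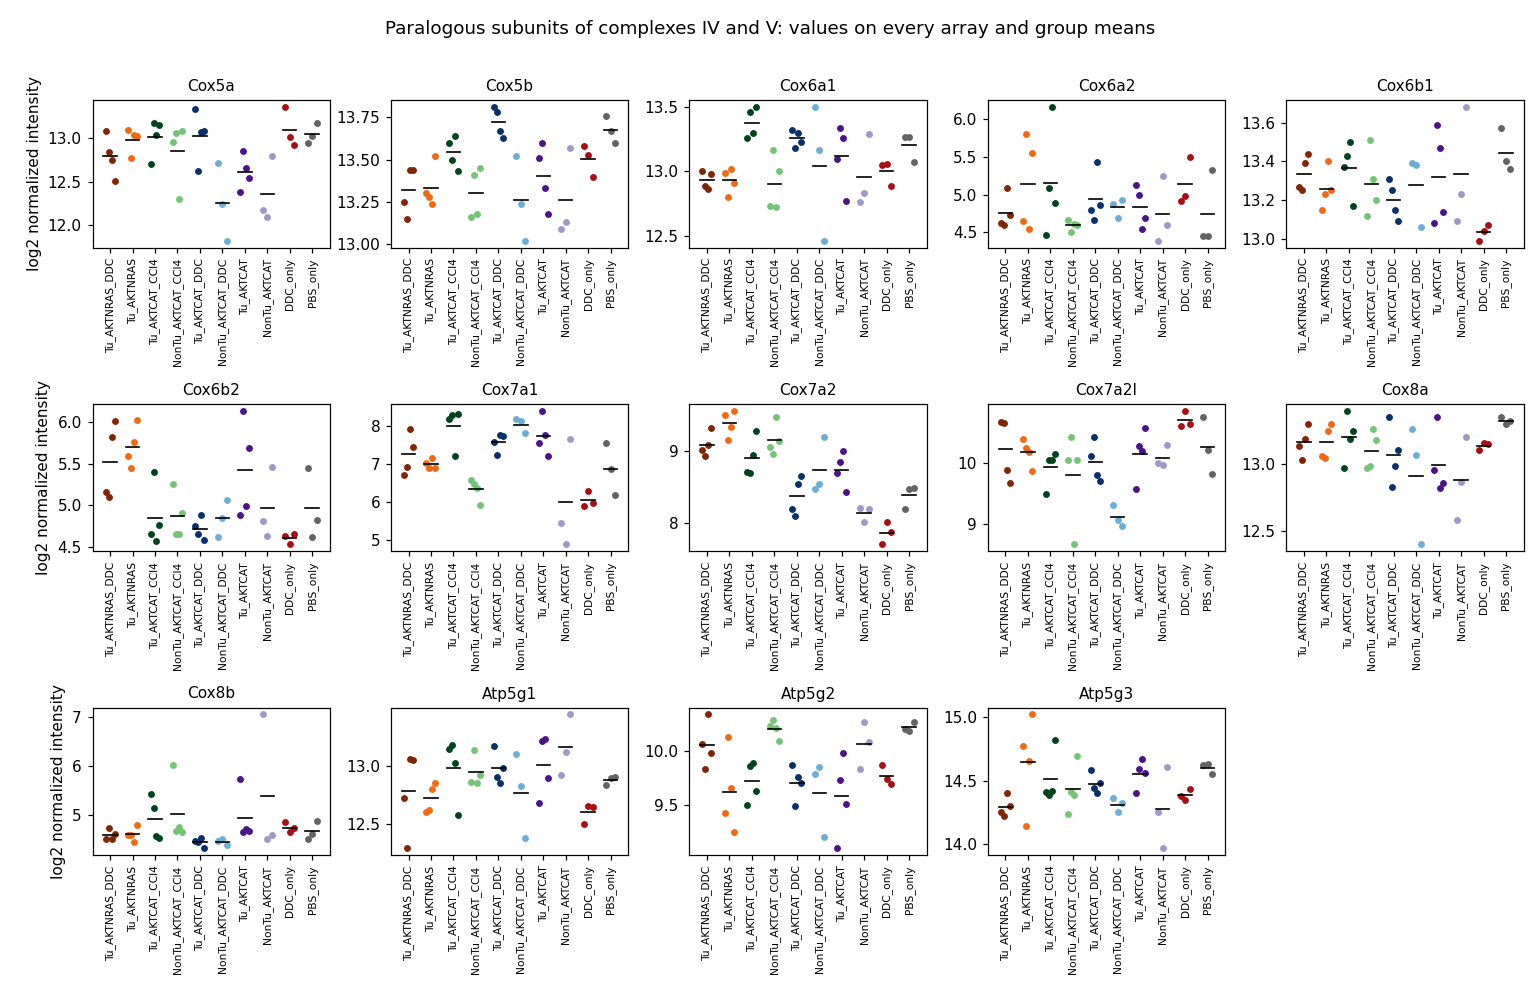
Log2 normalized intensity (vertical axes) of 14 paralogous subunits of complexes IV and V on every array (points) with group means (lines), by group (horizontal axes). *Cox7a1* spans 4.87 to 8.41, with its highest group mean in NonTu_AKTCAT_DDC and its lowest in NonTu_AKTCAT. *Cox6a2*, *Cox6b2* and *Cox8b* stay near background on most arrays.

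The falls between tumours and non-tumoral liver were all with CCl4. *Cox7b* was lower in tumours by -0.89 ± 0.28 (adjusted p = 0.0285), *Ndufb10*, an accessory complex I subunit, by -0.74 ± 0.21 and *Sdhd* by -0.65 ± 0.17. *Sdhd* had 9.25, 9.19, 9.60 and 9.96 in tumours, against 10.13, 10.13, 10.16 and 10.19 in non-tumoral liver, so every tumour array was lower. *Atp5mpl*, in contrast, was higher in untreated tumours (0.43 ± 0.13, adjusted p = 0.0309). The CCl4 groups shared slide 5, and the counts there were 2 to 11 without 1 array at a time (2 without tumour 2 or non-tumoral 3, 11 without non-tumoral 2). For the untreated and DDC comparisons 0 members were called with slide as a block, within the shared slide (1 against 3 arrays on slide 3, 2 against 3 on slide 2) or in a fit of the compared groups alone. With slide as a block, and equally within the shared slide, *Cox7a1* changed by 1.21 without treatment, and *Cox5a* by 0.82 and *Ndufaf7* by 0.73 with DDC. Without 1 array at a time 0 to 4 members were called without treatment (1 without tumour 2 or 3, 0 without non-tumoral 2) and 0 to 13 with DDC (0 without tumour 1 or non-tumoral 2 or 3, 2 without tumour 2 or 3, 8 without tumour 4 and 13 without non-tumoral 1).

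The hepatocyte marker sum lay between 86231 and 116940 in Tu_AKTCAT, against 134940 to 135490 in NonTu_AKTCAT, and between 72361 and 105910 in Tu_AKTCAT_CCl4, against 115400 to 129170 in NonTu_AKTCAT_CCl4. It lay between 77698 and 97555 in Tu_AKTCAT_DDC, against 97200 to 110700 in NonTu_AKTCAT_DDC. Without treatment the macrophage marker sum was 2895 to 5454 in tumours, against 6440 to 11216 in non-tumoral liver. With CCl4 the stellate cell and fibroblast sum was 4227 to 7284 in tumours, against 9252 to 11529 in non-tumoral liver. With DDC the macrophage sum was 834 to 2348 in tumours, against 4336 to 5645 in non-tumoral liver, and the endothelial sum 547 to 1860, against 2373 to 6355. Apart from the hepatocyte sums with DDC, which overlapped slightly, none of these pairs overlapped. The part of these sums in the members' values was not tested.

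Untreated AKT-NRAS tumours were set against untreated AKT-CAT tumours to compare the drivers. Of 80 members 17 were higher and 9 lower, 32.5%. Of all genes 20.6% were higher and 16.9% lower, with 37.4% called in all, so the members changed about as often as genes in general. With each array scaled to the same median 11 were higher and 32 lower, the median member changed by -0.38 and the median gene by -0.28. The largest rises were those of *Sdhd* (1.45 ± 0.17), *Atp5e* (1.43 ± 0.23), *Uqcrb* (1.23 ± 0.18) and *Ndufb4* (1.13 ± 0.28). The largest falls were those of the assembly factor *Ndufaf7* (-1.0 ± 0.26), *Ndufa10* (-0.64 ± 0.13), *Ndufs5-ps* (-0.58 ± 0.15) and *Ndufv3* (-0.53 ± 0.14). The 2 other *Ndufv3* probes changed by -0.75 and -0.30, the second of which did not pass. The *Ndufs4* probe in use changed by 0.47 and did not pass, while its 3 other probes rose by 1.02, 0.90 and 1.29. Complex V had 5 of 16 higher and none lower, complex IV 3 of 16 higher and none lower, and complex I 6 of 33 higher and 7 lower. *Sdhd* had 9.86, 9.67, 9.70 and 9.46 in Tu_AKTNRAS, against 8.52, 8.34, 8.16 and 7.86 in Tu_AKTCAT (adjusted p = 7.45e-08). *Uqcrb* had 11.76, 11.85, 11.98 and 11.999 in Tu_AKTNRAS, against 10.52, 10.998, 10.75 and 10.40 in Tu_AKTCAT (adjusted p = 2.05e-06). Neither pair of groups overlapped. *Atp5a1* had 11.02, 10.72, 10.69 and 10.93 in Tu_AKTNRAS, against 9.69, 9.80, 9.86 and 9.60 in Tu_AKTCAT (1.1 ± 0.18). Of 12 tricarboxylic acid cycle genes 6 were lower and 1 higher, with *Idh3a* at -1.39 ± 0.20 and *Dld* at 1.38 ± 0.25, and of 9 genes of pyruvate dehydrogenase and its kinases 5 were lower and 2 higher, with *Pdk4* at -2.15 ± 0.56 and *Pdk3* at 1.57 ± 0.24. The stellate cell and fibroblast marker sum was 8951 to 12195 in Tu_AKTNRAS, against 5079 to 7082 in Tu_AKTCAT (5 of 10 higher). The hepatocyte sum was 65358 to 86407 (median 80459) in Tu_AKTNRAS, against 86231 to 116940 (median 113490) in Tu_AKTCAT. The endothelial sum was 1042 to 5031, against 3484 to 8889, and both of these pairs overlapped. The cholangiocyte sum was 998 to 1937, against 53.2 to 1248 (2 of 4 higher), and 3 of 7 macrophage markers were higher and 2 lower. The part of these in the members' values was not tested. The AKT-NRAS arrays were alone on slide 4, so slide and driver cannot be told apart.

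The same subunits were high on slide 5 too. For *Sdhd*, *Uqcrb*, *Atp5a1*, *Ndufb4* and *Ndufb5* the 16 arrays of slides 4 and 5 all lay above the 20 arrays of slides 1 to 3, a pattern of 0.725% of all genes, and no member showed the opposite, a pattern of 0.0279% of all genes. *Sdhd* ranged over 9.19 to 10.19 on slides 4 and 5, against 7.43 to 8.83 on slides 1 to 3. *Atp5a1* ranged over 10.56 to 11.40 on slides 4 and 5, against 8.54 to 9.90 on slides 1 to 3. *Cox7b* had 7.41, 7.16, 7.69 and 7.45 in Tu_AKTNRAS_DDC, 7.80, 7.41, 7.23 and 7.65 in Tu_AKTNRAS, 7.24, 7.26, 7.80 and 7.53 in Tu_AKTCAT_CCl4 and 8.27, 7.80, 8.85 and 8.49 in NonTu_AKTCAT_CCl4, against 6.28, 5.11, 6.47 and 6.98 in Tu_AKTCAT_DDC. On the other arrays of slides 2 and 3 *Cox7b* lay between 5.89 and 6.90, and 2 of the 3 PBS_only arrays on slide 1 (7.16 and 7.44) lay within the range of slides 4 and 5. Slides 4 and 5 hold only AKT-NRAS and CCl4 groups, which are on no other slide, so slide and group cannot be told apart and these ranges are given with no test.

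**Figure D5:**
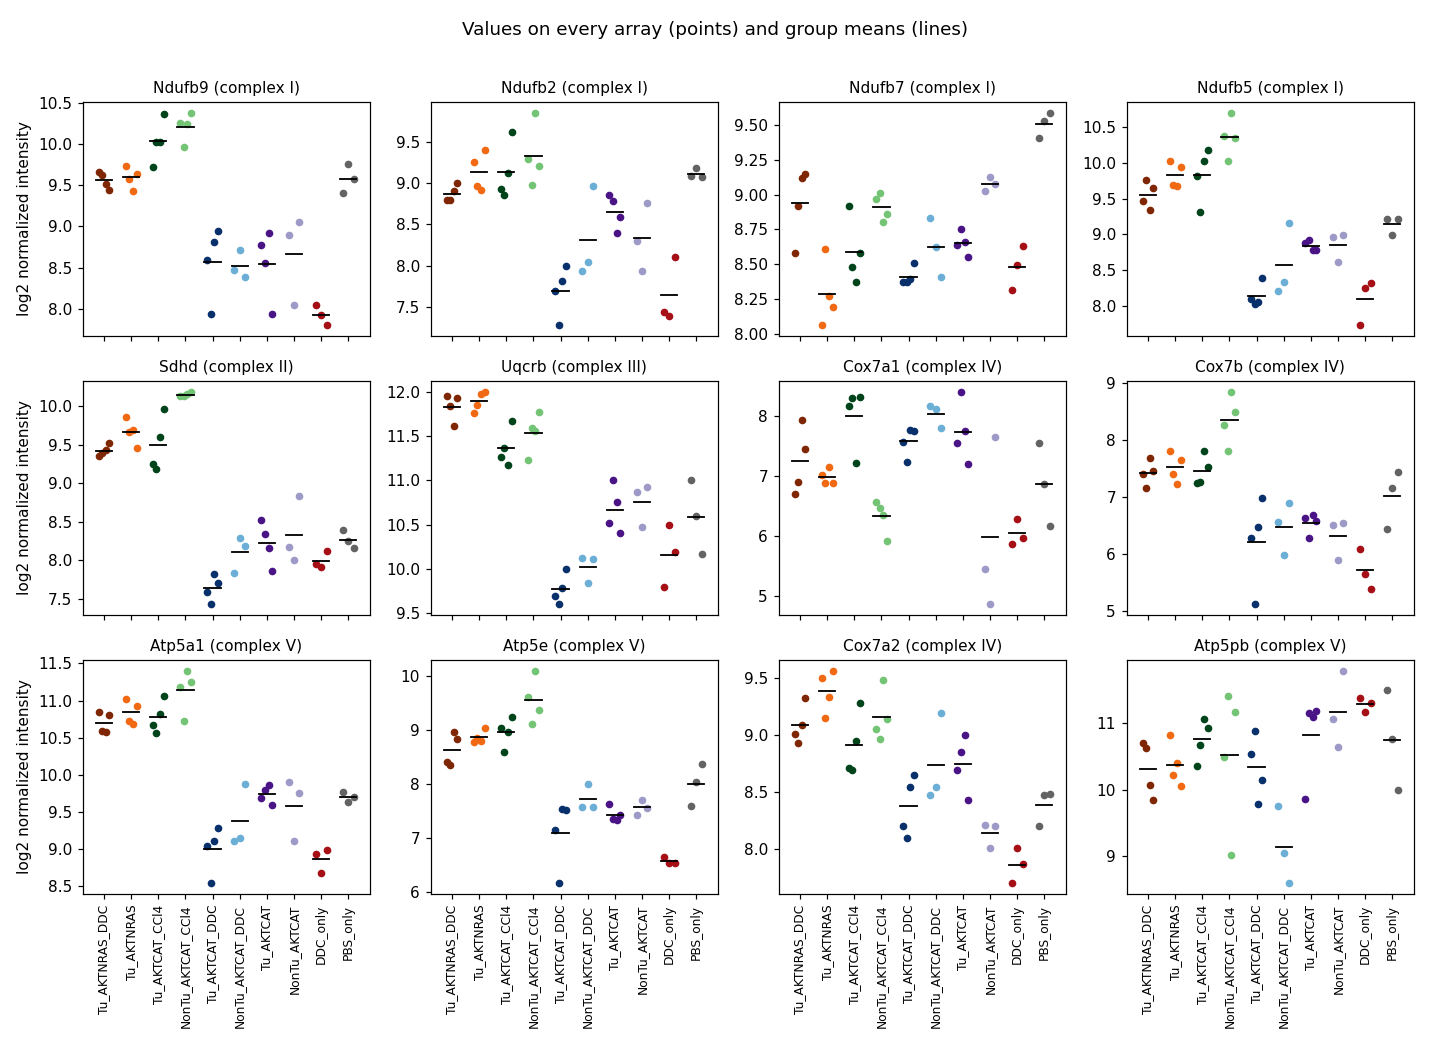
Log2 normalized intensity (vertical axes) of 12 members on every array (points) with group means (lines), by group (horizontal axes). *Sdhd*, *Uqcrb*, *Ndufb5* and *Atp5a1* are higher in the 4 groups of slides 4 and 5 on the left than in the other groups, and *Ndufb7* is highest in PBS_only.

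The members did not vary as 1 block. Over the 36 arrays the median correlation of 2 members was 0.15, and 30 of 80 correlated at over 0.5 with the mean of all members, scaled to equal spread, which includes each member itself. *Ndufa5* (r = 0.77) and *Atp5j2* (0.75) followed it most closely. The non-members most like this mean were *Tomm7* (r = 0.79), a small subunit of the outer membrane translocase, *Idh3b* (0.70), a subunit of the NAD-dependent isocitrate dehydrogenase, *Rsrc1* (0.68), *Eola1* (0.67) and *Klhdc8b* (0.67). The arrays share groups, slides and 1 normalization, so these correlations are a description.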

How the data were processed

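The authors deposited probe intensities before normalization. The submitters' processing notes name GenomeStudio (version and settings not given in the sources used here). Between 24.8% and 30.2% of them were below 0 per array, so a background had been subtracted. The detection p-values deposited by the authors stood in columns named by slide, which were tied to samples by the order of their values (0 steps out of order in a sample's own column, at least 7712 in any other). A deposited table of normalized intensities served only as an alternative. Gene names came from the platform annotation.

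Background correction, quantile normalization and the log2 scale of the deposited signals came from limma's neqc (offset 16). The probe with the highest mean stood for a gene. A single limma model of 10 groups was fitted to the 36 arrays, and each of 11 comparisons was a contrast tested two-sided. Named members were the 4 largest rises and falls called in each comparison, with values on every array for the largest F per complex, for paralogues (in a plot, with ranges in the text) and for the members called most often. Some further values were added after they were seen. The members and gene lists were chosen with earlier results of these data known. On data simulated for the comparison of DDC_only with PBS_only (10765 genes), 2.99% of changes of 0.5, 50.7% of changes of 1 and 93.9% of changes of 2 on the log2 scale were recovered. In no comparison did every pair of same-numbered samples correlate at over 0.1 (lowest pair -0.29 to 0.07), so the numbers were not taken as pairs. Between tumours and non-tumoral liver 3 of 4 pairs were over 0.1 with CCl4, 2 of 3 without treatment and 1 of 3 with DDC (highest 0.35). The labels do not give whether samples shared an animal, and this rule cannot tell. Alternatives were another scaling, the authors' values, an offset of 50, other detection filters, a trended prior, all probes, slide and replicate blocks, fits within a slide or of the compared groups only, and each array left out. The tools were R 4.3.3, limma 3.58.1, Python 3.11.15, numpy 2.4.6, pandas 2.3.3 and matplotlib 3.10.9.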

Additional observations from a re-analysis of the deposited data

Results flagged for a closer look

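Among 20 members with values on every array, 120 groups of 4 arrays were examined for an array far from the other 3, and 7 stood apart, where chance flags about 1 in 20. *Cox7a1* had 7.22 in Tu_AKTCAT_CCl4 3, against 8.18 to 8.32 in the other tumours with CCl4. *Cox5a* had 12.30 in NonTu_AKTCAT_CCl4 3, against 12.96 to 13.08. *Cox7a2l* had 9.5 in Tu_AKTCAT_CCl4 1, against 10.05 to 10.15. *Cox8b* had 6.02 in NonTu_AKTCAT_CCl4 1, against 4.65 to 4.75, and 5.73 in Tu_AKTCAT 1, against 4.64 to 4.71. *Atp5g3* had 14.82 in Tu_AKTCAT_CCl4 4, against 14.39 to 14.42. *Ndufb7* had 8.51 in Tu_AKTCAT_DDC 4, against 8.37 to 8.39, a gap of little size.

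For 2 members an effect differed between groups by a test of the difference itself, and both missed the threshold with slide as a block (adjusted p = 0.0652 for *Ndufb7* and 0.112 for *Cox7a1*, limma). The DDC effect on *Ndufb7* in AKT-NRAS tumours minus that in AKT-CAT tumours was 0.90 on the log2 scale. The tumour effect on *Cox7a1* with CCl4 minus that with DDC was 2.13. The *Cox7a1* call was also lost when any of 5 single arrays was left out.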

How the results depend on the processing

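Counts are of called members, and medians are their median log2 fold change. Scaling each array to the same median gave, for DDC_only against PBS_only, 67 calls (median -0.92), AKT-NRAS against AKT-CAT tumours 43 (-0.38, 11 higher and 32 lower), non-tumoral liver against PBS_only 40 (-0.64), tumours with CCl4 20 (-0.36, 1 higher and 19 lower), tumours with DDC 3 (-0.16, 1 higher and 2 lower) and the DDC effect by driver 6 (0.16). Its medians were -0.04 for untreated tumours, -0.09 and 0.11 for DDC in AKT-CAT and AKT-NRAS tumours and -0.25 for the tumour effect with CCl4 minus that with DDC. With slide as a block 0 members were called for untreated tumours (-0.08), tumours with DDC, DDC in non-tumoral liver (-0.29), non-tumoral liver against PBS_only (-0.10) and both differences of effects, and 1 for DDC in AKT-CAT tumours. Within a slide 0 were called for untreated tumours (-0.08), tumours with DDC and DDC in AKT-CAT tumours. In fits of the compared groups alone DDC_only against PBS_only gave 15 calls, DDC in AKT-CAT tumours 4, and tumours with CCl4, DDC in non-tumoral liver and the DDC effect by driver 2 each. Such fits gave 0 for untreated tumours, tumours with DDC, DDC in AKT-NRAS tumours and non-tumoral liver against PBS_only. An offset of 50 gave 9 for tumours with CCl4, and it, a stricter detection filter and a trended prior each gave 2 for the DDC effect by driver. Leaving out 1 array gave 18 to 26 calls for DDC_only (medians -0.35 to -0.30), 5 to 26 for non-tumoral liver against PBS_only (-0.43 to -0.25), 5 to 9 for DDC in AKT-CAT tumours (-0.06 to 0.06), 1 to 2 in AKT-NRAS tumours (-0.08 to -0.02) and 5 to 17 in non-tumoral liver (-0.10 to 0.13). It gave 0 to 4 for untreated tumours (0.00 to 0.18), 0 to 13 with DDC (0.00 to 0.16), 2 to 11 with CCl4 (-0.06 to 0.01), 21 to 26 for the drivers (0.02 to 0.10), 1 for the DDC effect by driver (-0.11 to -0.01) and 0 to 2 for the tumour effect with CCl4 minus DDC (-0.19 to -0.09). The causes were not tested. With the replicate number as a block, 26 members were called in DDC_only against PBS_only, and no count moved by over 1.5 times. Of 43 results on named members 12 kept their call under every alternative run and 0 changed sign. These were *Atp5e*, *Ndufb2*, *Ndufb4* and *Ndufb9* with DDC alone, 7 between drivers and *Cox7a1* with CCl4. Slide as a block was run for 35 of the 43 results, and 24 of these weakened. It was not run between drivers, where slide and driver cannot be told apart, so those 7 did not face it. Members near background, such as *Ndufb4* in DDC_only and *Cox8b*, have compressed changes.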

Other observations

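*Cox8b*, the muscle form of subunit VIII, had 7.06, 4.50 and 4.59 in NonTu_AKTCAT, where the array with 7.06 had *Cox7a1* at 5.45 and *Cox6a2* at 4.39. The array with the highest *Cox7a1* of that group, 7.65, had *Cox8b* at 4.59.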
